A study of Mus musculus with 17 samples.

Results

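Cells that prepare to divide switch on a shared set of genes, and 39 of these DNA replication and mitosis genes were followed in mouse vein grafts during the first hours after surgery. The 39 are a list of cell cycle genes given by symbol, and of the several transcript entries a symbol could have, the one with the highest mean raw count was taken. Raw counts were at hand for 28 of the 39 genes, among 13212 entries in all, and 25 of the 28 had enough counts to be tested. By edgeR's test 0 of these 25 genes were higher in grafts than in control veins, where 5.58% of all 11123 entries tested were higher at 6 h and 1.12% at 1 h, so that a count of 0 is near the background. Lower at 6 h (1.59% of all entries) were Cdkn2c and Ccnd2, the inhibitor p18 and the cyclin D2 that both bind the G1 kinase CDK4, and Cdkn2c was also lower at 6 h than at 1 h. The genes of S phase and mitosis differed far more between libraries of the same group than between groups.

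The study followed inferior vena cava of male C57BL/6J mice, aged 10 to 12 weeks. In the 6 h and 1 h groups the vein had been moved from a donor mouse into the carotid artery of a recipient over plastic cuffs and perfused with arterial blood for 6 or 1 h, and the ends joined to the artery were cut off before RNA extraction. Control vena cava was not grafted, so surgery, arterial pressure and contact with the recipient's blood all separated both graft groups from it. Libraries were made by low-input amplification and numbered 5 at 6 h, 4 at 1 h and 4 in the control group; grafts at 24 h were not used here. The labels do not say whether each library came from its own mouse, so p-values measure the spread between these libraries, which may be technical in part. Libraries are called by their number within a group in the count tables, which is not tied to the numbers in the sample names. The names of the 6 h and control samples share the number 7 after the flow cell code and those of the 1 h samples have the number 8, and if this number is a sequencing lane, its effect and that of time cannot be told apart at 1 h.

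Before DNA is copied, a ring of the MCM proteins is loaded on it with help of Cdc6 and Cdt1, and Pcna then holds the polymerases on the template. Cyclins switch on cyclin-dependent kinases in turn, the D-type cyclins with Cdk4 in G1, cyclins E and A with Cdk2 around S phase, and cyclins B with Cdk1 in mitosis. The inhibitors p27, from Cdkn1b, and p18, from Cdkn2c, hold these kinases back. Transcription of the replication genes is driven by E2F factors once the retinoblastoma protein is phosphorylated, and the mitotic genes follow later through a complex that binds the cell cycle homology region, CHR. In vein grafts, division of smooth muscle cells is known as a later part of neointima formation, while resting vessel wall holds few dividing cells.

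The promoters of the members show these control sequences, and 4 are printed because their genes represent the branches described below: Cdk1 has motifs of both kinds, Mcm6 those of E2F, Mki67 that of CHR, and Cdkn2c, the gene with the largest called difference among the members, has none in either of its windows. Each sequence runs 5′ to 3′ over 300 bases, from 250 before the transcription start, is from RefSeq on build GRCm38.p6, and has matches in capitals.
Cdk1 (chr10:69352863-69353162, minus strand): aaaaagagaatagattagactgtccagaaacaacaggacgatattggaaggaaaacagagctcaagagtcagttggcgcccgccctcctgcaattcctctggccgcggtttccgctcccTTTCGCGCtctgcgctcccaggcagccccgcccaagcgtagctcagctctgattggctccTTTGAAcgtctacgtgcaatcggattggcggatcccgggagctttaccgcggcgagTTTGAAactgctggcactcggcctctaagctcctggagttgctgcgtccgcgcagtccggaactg
Mcm6 (chr1:128359656-128359955, minus strand): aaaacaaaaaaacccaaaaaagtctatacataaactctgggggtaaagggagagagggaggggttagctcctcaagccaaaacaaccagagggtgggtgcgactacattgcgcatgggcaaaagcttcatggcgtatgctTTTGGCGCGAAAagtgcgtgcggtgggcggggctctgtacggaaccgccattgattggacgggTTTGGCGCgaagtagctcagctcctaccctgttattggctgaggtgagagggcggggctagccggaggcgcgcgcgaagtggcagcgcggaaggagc
Mki67 (chr7:135716330-135716629, minus strand): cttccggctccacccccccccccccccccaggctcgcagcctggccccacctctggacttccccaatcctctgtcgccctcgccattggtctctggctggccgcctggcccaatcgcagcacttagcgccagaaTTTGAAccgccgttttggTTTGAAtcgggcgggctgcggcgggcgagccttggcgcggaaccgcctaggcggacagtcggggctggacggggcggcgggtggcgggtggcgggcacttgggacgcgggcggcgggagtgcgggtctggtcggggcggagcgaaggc
Cdkn2c (chr4:109666707-109667006, minus strand): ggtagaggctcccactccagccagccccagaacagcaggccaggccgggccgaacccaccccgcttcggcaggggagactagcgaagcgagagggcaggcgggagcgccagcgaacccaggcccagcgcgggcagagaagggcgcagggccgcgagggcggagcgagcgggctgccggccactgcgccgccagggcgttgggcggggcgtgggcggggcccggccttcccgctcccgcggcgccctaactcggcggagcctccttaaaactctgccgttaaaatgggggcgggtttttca
The letters searched on both strands were TTTCCCGC, TTTGGCGC and TTTCGCGC for E2F, TTTGAA and TTCGAA for CHR, and TGACGTCA for the cyclic AMP response element. Of the 39 members 32 had a promoter in the table, and 3 of them had more than 1 window. Shares of members are given by gene, while those of all promoters are by window. By window, 8 of 35 of the members' promoters had an E2F match and 13 of 35 a CHR match. Mcm4, Ccna2, Ccne2, Ccnd1, Ccnd2, Aurkb and Myc had none there. An E2F match stood in 8 of the 32 (25.0%), against 1.84% of 32851 promoters of the same length, and in the capitals of Mcm6 a TTTGGCGC overlaps a TTTCGCGC read from the other strand. A CHR match stood in 13 of the 32 (40.6%), against 19.2% of all promoters, and the members were Aurka, Bub1, Bub1b, Ccnb2, Cdc20, Cdk1, Cenpa, Kif11, Mcm2, Mcm7, Mki67, Plk1 and Top2a. The response element stood in Mcm5 only among the members, against 1.79% of all promoters. These matches describe the letters of the window and were not tested for binding.

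**Figure D1:**
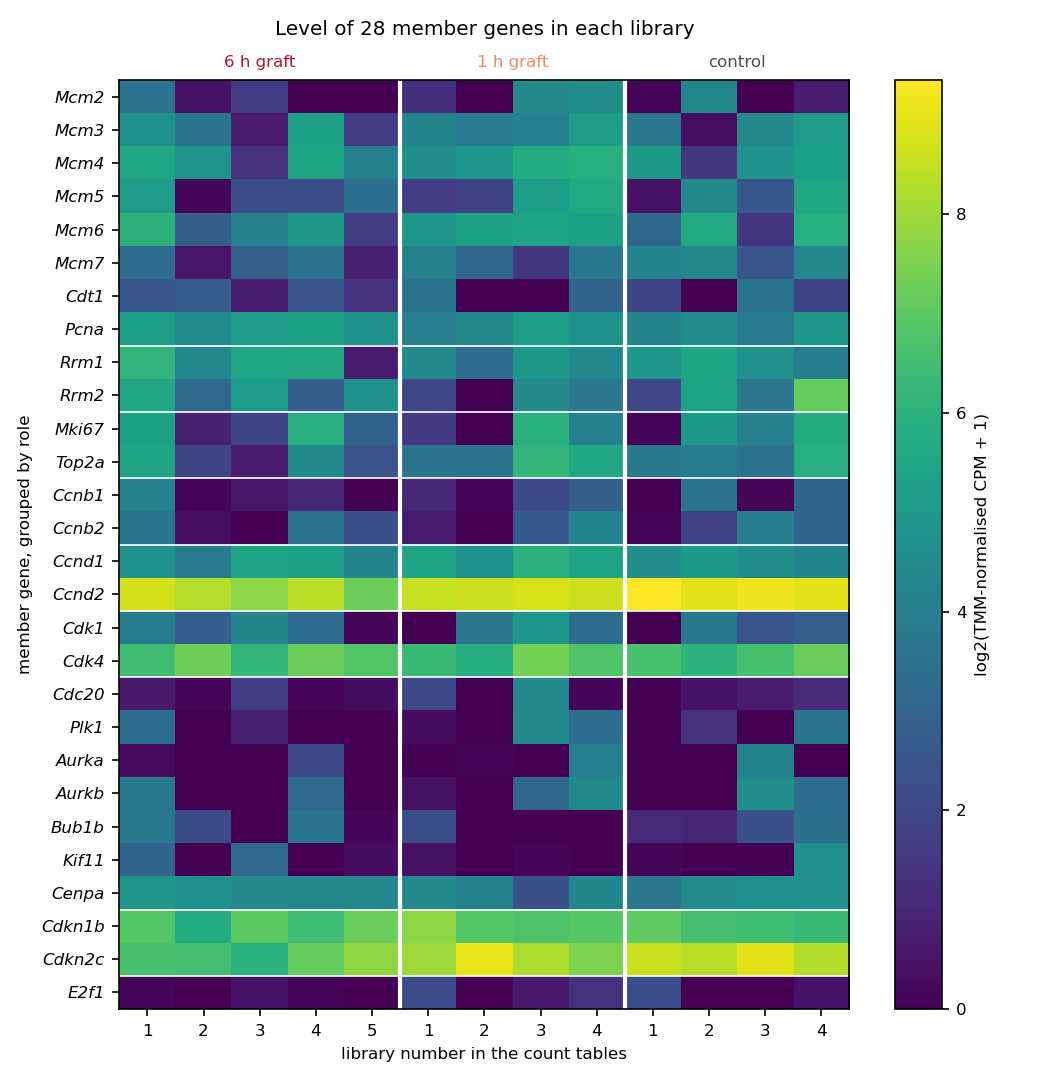
Level of the 28 members with counts (rows, grouped by role) in each of the 13 libraries (columns), as log2 of the TMM-normalised CPM plus 1. The rows of Ccnd2, Cdk4, Cdkn1b and Cdkn2c are bright throughout, while those of the mitotic genes are dark in many libraries of each group and bright in others, such as 6 h library 1, 1 h libraries 3 and 4 and control library 4.

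Total counts per library were 10171059 to 11816124 at 6 h, 7897624 to 8359934 at 1 h and 8569614 to 11029712 in controls. Levels are given as CPM, the share of a library's counts on edgeR's usual scale, after TMM scaling, which corrects for differences in library composition. The biological coefficient of variation, the spread between libraries beyond counting noise relative to the mean, was 1.03 over all entries. Defining genes of vessel wall were present: 8 of 8 endothelial markers had counts, with summed levels of 693 to 1110 CPM at 6 h, 569 to 1387 CPM at 1 h and 361 to 454 CPM in controls. Of these 8 only Cdh5 was called by edgeR, higher at 6 h against control (log2 fold change 1.945, adjusted p = 0.0017). Not all rose, as Kdr had 4.28 to 36.8 CPM at 6 h and 22.2 to 48.9 CPM in controls. Of the smooth muscle and mural cell markers 6 of 9 had an entry, with sums of 342 to 570 CPM at 6 h, 671 to 990 CPM at 1 h and 469 to 996 CPM in controls. Acta2 and Tagln were called lower at 6 h against 1 h by edgeR. RNA of 5 of 6 heart muscle markers was found too, at 260 to 14870 CPM at 6 h, 1002 to 11760 CPM at 1 h and 1684 to 10090 CPM in controls, without a call in the 3 comparisons.

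Cdkn2c (RefSeq entry NM_007671) lies on chromosome 4 from 109333481 to 109339794 on the minus strand (mm9), in a stretch where the annotation has no other gene. Its product p18 belongs to the INK4 family, which binds Cdk4 and Cdk6 in place of the D-type cyclins. At 6 h the 5 libraries had 97.8, 94.7, 61.7, 139 and 222 CPM of Cdkn2c. At 1 h the 4 libraries had 255, 535, 291 and 182 CPM, and the 4 control libraries had 389, 327, 486 and 307 CPM. All 6 h libraries were below all control libraries, while the highest 6 h value lay above the lowest 1 h value. Cdkn2c averaged 123 ± 61.8 CPM at 6 h (SD, n = 5), 316 ± 153 CPM at 1 h (n = 4) and 377 ± 80.5 CPM in controls (n = 4). The log2 fold change at 6 h against control was -1.62 (SE 0.36, 95% interval -2.39 to -0.85, adjusted p = 0.0109 by edgeR's quasi-likelihood test), and an exact 2-sided permutation test of log2 CPM gave p = 0.0159 before any adjustment. It was called under each of the 16 alternatives computed, at adjusted p-values of 5.7e-04 to 0.041.

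At 6 h against 1 h the log2 fold change of Cdkn2c was -1.36 (SE 0.36, 95% interval -2.13 to -0.59, adjusted p = 0.0491 by edgeR), and the exact permutation p was 0.0238 before adjustment. This call stood close to the threshold: it was lost without 1 h library 1, 2 or 3 and without 6 h library 1, 2, 3 or 4, at adjusted p-values of 0.0849, 0.181, 0.0914, 0.117, 0.114, 0.104 and 0.0779 by edgeR. The log2 fold change in these 7 fits stayed between -1.45 and -0.98, and was -0.98 without 1 h library 2. The call was also lost with no filter on low counts (adjusted p = 0.052) and when only the libraries of both groups were fitted (0.0991). At 1 h against control Cdkn2c had a log2 fold change of -0.26 with an interval of -1.06 to 0.55 (adjusted p = 0.999, edgeR).

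Several cell type markers moved in the comparisons where Cdkn2c was called, and values for 6 h against control are given first. The 10 neutrophil markers with an entry summed to 3314 to 60170 CPM at 6 h, against 29.3 to 76.3 CPM in controls. By edgeR 6 of 9 tested were higher. Csf3r and Camp were at 0 in controls, but at 6 h Csf3r was above 0 only in library 2, at 0.563 CPM. Camp was also at 0 in 6 h libraries 3 and 4. Mmp9 overlapped between the groups, with 6.57 to 99.0 CPM at 6 h and 11.8 to 50.8 CPM in controls. Within the 6 h group, library 5 had both the highest neutrophil sum and the highest Cdkn2c level. Mesothelial markers, 5 of 5 with counts, summed to 103 to 186 CPM at 6 h and 503 to 670 CPM in controls, with 1 of 5 lower by edgeR. Fibroblast markers, 8 of 8 with counts, summed to 1991 to 2519 CPM at 6 h and 2570 to 4003 CPM in controls, with 1 of 7 tested lower. Platelet markers, 7 of 8 with an entry, summed to 1330 to 9717 CPM at 6 h and 204 to 339 CPM in controls, with 7 of 7 higher. Monocyte and macrophage markers, 9 of 10 with an entry, summed to 4560 to 13210 CPM at 6 h and 1904 to 3548 CPM in controls. Only Cd14, 1 of 9, was called higher, and it made up most of the sum in each 6 h library. Cd14 had 2845 to 11490 CPM at 6 h and 71.7 to 103.9 CPM in controls. Csf1r went the other way, with 11.7 to 97.3 CPM at 6 h and 101.5 to 169.4 CPM in controls, and the remaining markers of this list overlapped between these groups. Fat cell markers, 5 of 7 with an entry, summed to 13890 to 26170 CPM at 6 h and 16030 to 22960 CPM in controls, with none called. At 6 h against 1 h edgeR called 2 of 6 smooth muscle and mural cell markers lower, Acta2 (log2 fold change -1.422) and Tagln (-1.088). Also lower were 3 of 7 fibroblast markers, Col1a1 (-1.101), Col1a2 (-1.249) and Col3a1 (-1.965). Higher there were 2 of 9 neutrophil markers, Mmp8 and Il1r2, and also Cd14 and Lep. Of all entries 1.02% were lower and 2.63% higher in that comparison. The part of these cell types in the fall of Cdkn2c was not tested. In RNA of whole tissue, fewer cells of a type and less RNA per cell cannot be told apart.

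Cdkn1b, which encodes p27, an inhibitor of cyclin-dependent kinases that accumulates in resting cells, had 106 ± 37.4 CPM at 6 h (SD, n = 5), 140 ± 50.8 CPM at 1 h (n = 4) and 98.7 ± 25.1 CPM in controls (n = 4). It had at least 570 counts in each library, and its log2 fold change at 6 h against control was 0.10 with an interval of -0.60 to 0.80, while that of 1 h against control was 0.51 with an interval of -0.23 to 1.24. The second interval includes a rise of over 1 log2 unit.

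**Figure D2:**
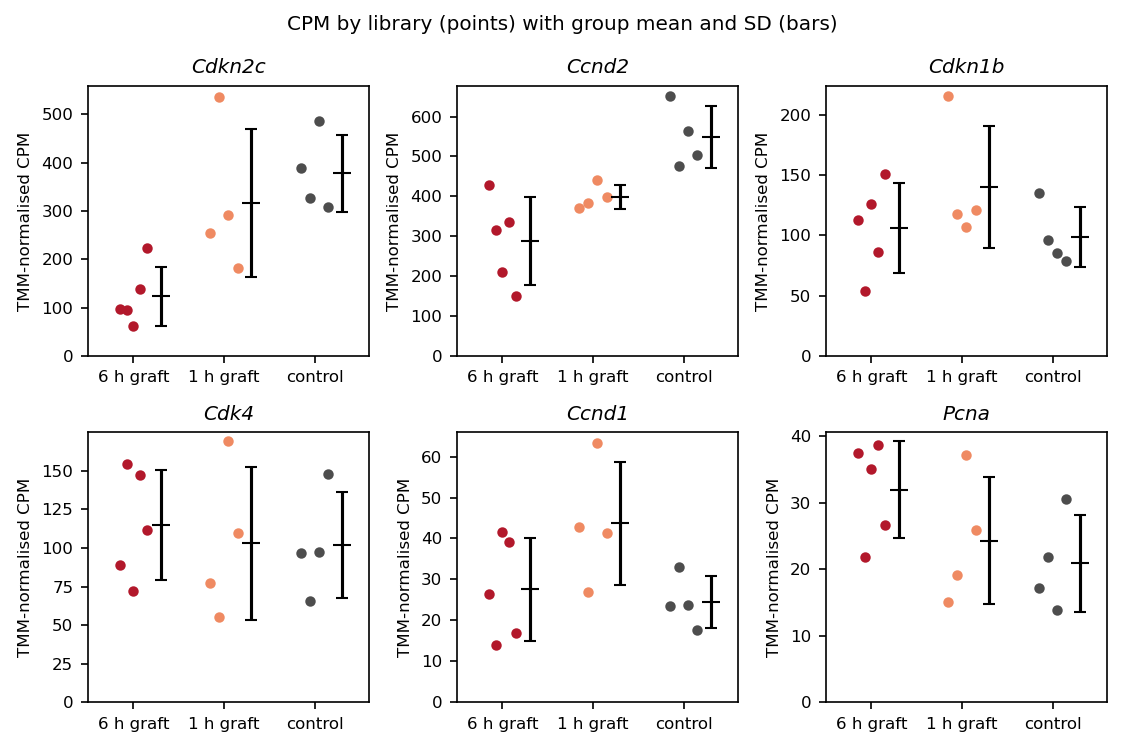
TMM-normalised CPM of Cdkn2c, Ccnd2, Cdkn1b, Cdk4, Ccnd1 and Pcna in each library (points), with group mean and SD (bars), for 6 h grafts (n = 5), 1 h grafts (n = 4) and controls (n = 4). The 6 h points of Cdkn2c (61.7 to 222 CPM) and of Ccnd2 (150 to 429 CPM) lie below every control point, and the groups overlap for the others shown.

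Ccnd2 encodes cyclin D2, a partner of Cdk4 and Cdk6 that carries growth signals into the cell cycle. The gene (NM_009829) lies on chromosome 6 from 127075797 to 127101066 on the minus strand (mm9) and overlaps 9330179D12Rik on the other strand, and since the authors counted without regard to strand, reads from both cannot be told apart where they overlap. At 6 h the libraries had 429, 315, 210, 336 and 150 CPM of Ccnd2. At 1 h they had 370, 383, 441 and 399 CPM, and the control libraries had 651, 475, 563 and 504 CPM. Every control value was above every value of either graft group, and the 6 h and 1 h groups overlapped. The means were 288 ± 109 CPM at 6 h (SD, n = 5), 398 ± 31.0 CPM at 1 h (n = 4) and 549 ± 77.9 CPM in controls (n = 4). The log2 fold change of Ccnd2 at 6 h against control was -0.93 (SE 0.26, 95% interval -1.48 to -0.38, adjusted p = 0.0389 by edgeR), with an exact permutation p of 0.0159 before adjustment. The call was lost without 6 h library 2, 3 or 5 (adjusted p of 0.0598, 0.0909 and 0.0595 by edgeR) and without control library 1, 2, 3 or 4 (0.12, 0.0676, 0.0895 and 0.0632), and also when only the libraries of both groups were fitted (0.0804).

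At 1 h Ccnd2 was below control in all 4 libraries, with a log2 fold change of -0.46 (SE 0.27, 95% interval -1.04 to 0.12, adjusted p = 0.817 by edgeR). The exact permutation p of 0.0286 is the smallest that 4 against 4 libraries allow, and 84 such tests of single members were computed. At 6 h against 1 h its log2 fold change was -0.47 with an interval of -1.02 to 0.08 (adjusted p = 0.422, edgeR). The marker values given for Cdkn2c stand beside the Ccnd2 differences at 6 h. At 1 h against control the fibroblast markers went the other way, with sums of 4174 to 5683 CPM and 2570 to 4003 CPM. Of the 7 tested, 1, Col1a1, was higher by edgeR and 0 were lower. Neutrophil markers were higher as at 6 h, with sums of 1216 to 10110 CPM at 1 h and 29.3 to 76.3 CPM in controls. The part of these cell types in the Ccnd2 differences was not tested.

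Ccnd1, for cyclin D1, had 27.6 ± 12.5 CPM at 6 h (SD, n = 5), 43.7 ± 14.96 CPM at 1 h (n = 4) and 24.5 ± 6.36 CPM in controls (n = 4). At 1 h its libraries had 42.9, 27.1, 63.4 and 41.3 CPM, and those of controls had 23.5, 33.1, 23.8 and 17.8 CPM, so that 3 of 4 libraries at 1 h were above all controls. The log2 fold change of Ccnd1 at 1 h was 0.83 (interval -0.30 to 1.96, adjusted p = 0.878 by edgeR; exact permutation p = 0.0571 before adjustment), which did not pass. Cdk4, the kinase that the D-type cyclins switch on, had 115 ± 35.7 CPM at 6 h (SD, n = 5), 103 ± 49.4 CPM at 1 h (n = 4) and 102 ± 34.1 CPM in controls (n = 4). Its interval at 6 h against control was -0.59 to 0.94 and at 1 h against control -0.79 to 0.82, and with Ccnd2 and Cdkn1b it was among the most precisely measured members. Among these genes, Ccnd1 overlaps Oraov1 and Cdk4 overlaps Tspan31 on the other strand.

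At 6 h against control 2 of 25 members tested were lower and 0 higher by edgeR, beside 1.59% of all 11123 entries lower and 5.58% higher. At 6 h against 1 h 1 of 25 was lower and 0 higher, beside 1.02% and 2.63% of all entries. At 1 h against control 0 of 25 passed in either direction, by edgeR and by DESeq2, beside 0.00899% of all entries lower and 1.12% higher by edgeR. The number of members with an unadjusted edgeR p under 0.05 was 0 as well, and the share of all entries under that unadjusted threshold is not given here. The groups did not overlap for 2 members lower and 0 higher at 6 h against control, where 5.32% of all entries were lower and 9.23% higher without overlap. For 1 h against control these were 1 lower, Ccnd2, and 0 higher, beside 2.09% and 3.55% of all entries, and for 6 h against 1 h 0 of both, beside 3.13% and 6.49%. The median log2 fold change of the members was -0.25 at 6 h against control, 0.11 at 1 h against control and -0.47 at 6 h against 1 h, beside -0.05, -0.04 and 0.00 for all entries.

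**Figure D3:**
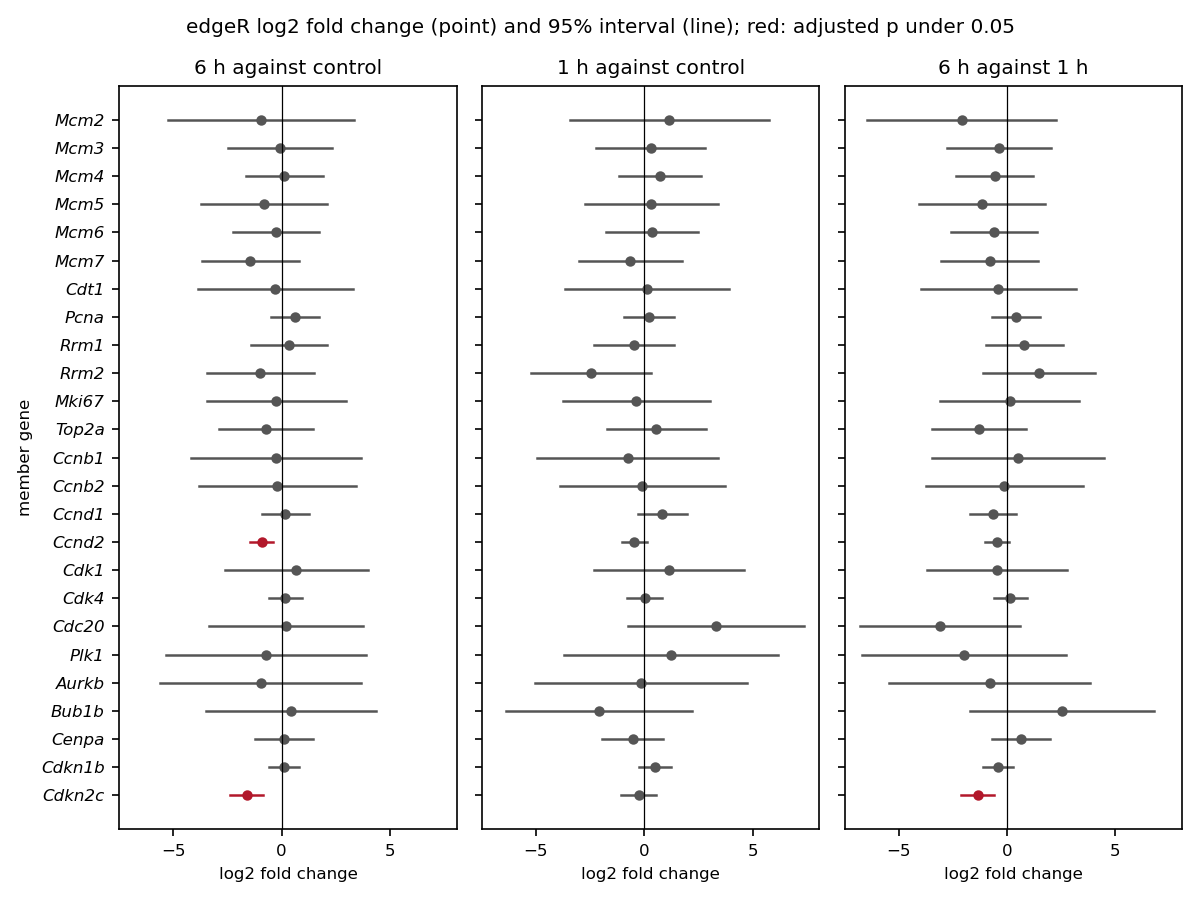
Log2 fold change by edgeR (points) with its 95% interval (lines) of the 25 members tested, in 3 comparisons. Red marks an adjusted p under 0.05, which holds for Cdkn2c and Ccnd2 at 6 h against control and for Cdkn2c at 6 h against 1 h, and the intervals of Plk1 and Aurkb span over 9 log2 units.

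Among the replication genes, Pcna, the sliding clamp of DNA polymerase, was the most evenly measured. It had 37.4, 21.9, 35.1, 38.7 and 26.7 CPM in the 6 h libraries, 15.2, 19.1, 37.1 and 25.9 CPM in the 1 h libraries and 17.2, 21.9, 13.8 and 30.6 CPM in the control libraries. The mean of Pcna was 32.0 ± 7.31 CPM at 6 h (SD, n = 5), 24.3 ± 9.60 CPM at 1 h (n = 4) and 20.9 ± 7.30 CPM in controls (n = 4), and the groups overlapped. Its log2 fold change at 6 h against control was 0.61 (SE 0.52, interval -0.50 to 1.73, adjusted p = 0.586 by edgeR; exact permutation p = 0.0635 before adjustment).

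The 6 genes of the MCM ring, the helicase that opens the double strand, were uneven within each group. Mcm2 had 10.7, 0.375, 2.12, 0 and 0 CPM at 6 h, 1.40, 0, 20.2 and 23.4 CPM at 1 h and 0.0917, 19.5, 0 and 0.684 CPM in controls. Mcm5 had 34.7, 0.0938, 3.61, 3.60 and 9.57 CPM at 6 h, 2.22, 2.54, 36.7 and 50.3 CPM at 1 h and 0.367, 20.3, 4.93 and 47.4 CPM in controls. Subunits of one ring did not keep step in each library: in control library 2 Mcm2 and Mcm5 were high while Mcm4, with 20 counts, and Mcm3, with 3 counts, were the lowest of their group. Mcm6 had 18 to 658 counts at 6 h, 261 to 386 counts at 1 h and 17 to 770 counts in controls. Log2 fold changes of the 6 at 6 h against control were -1.45 (Mcm7) to 0.13 (Mcm4), with standard errors of 0.84 to 2.02, and none passed in any of the 3 comparisons by edgeR. Mcm7, whose span holds Mir106b, Mir25 and Mir93 on the same strand, also overlaps Ap4m1 and Cops6 on the other strand. Cdt1, which loads the ring, had at least 10 counts in 9 of 13 libraries and 0 counts in 3.

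Rrm1 and Rrm2 encode the subunits of ribonucleotide reductase, which makes the building blocks of DNA. Rrm1 had 0.630 to 67.0 CPM at 6 h, 9.11 to 33.5 CPM at 1 h and 14.3 to 43.4 CPM in controls. Rrm2 had 47.4, 8.26, 35.1, 6.04 and 26.8 CPM at 6 h, 3.03, 0, 20.3 and 12.1 CPM at 1 h and 2.94, 42.3, 11.9 and 138 CPM in controls. Control library 4 stood above all others for Rrm2, with 1823 counts. The lowest unadjusted p of a member at 1 h against control was that of Rrm2 (0.0767, log2 fold change -2.46, SE 1.30, adjusted p = 0.729 by edgeR).

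Mki67, the antigen Ki-67 that coats mitotic chromosomes and serves as a marker of dividing cells, had 40.2, 0.844, 2.86, 57.5 and 6.93 CPM at 6 h. At 1 h it had 1.98, 0, 62.3 and 15.7 CPM, and in controls 0.0917, 33.1, 15.97 and 54.1 CPM. In each group Mki67 thus spanned from under 2 CPM to over 50 CPM, and its log2 fold change at 6 h against control was -0.25 with an interval of -3.46 to 2.95 (adjusted p = 0.956, edgeR). Top2a, the topoisomerase that untangles sister chromatids, had 43.2, 2.91, 0.622, 20.7 and 4.28 CPM at 6 h, 11.2, 10.9, 70.5 and 46.9 CPM at 1 h and 12.6, 14.5, 10.4 and 57.2 CPM in controls. Its interval at 6 h against control was -2.89 to 1.45. At this depth and spread, changes of several-fold in either gene were not detectable.

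Cdk1, the kinase that starts mitosis, had 14.6, 5.91, 18.5, 8.58 and 0.126 CPM at 6 h, 0, 12.5, 30.9 and 9.40 CPM at 1 h and 0, 12.8, 4.61 and 6.38 CPM in controls. Its cyclins were lower and patchier. Ccnb1 had at least 10 counts in 5 of 13 libraries and Ccnb2 in 8 of 13, with highest counts of 169 and 162. Intervals at 6 h against control were -2.62 to 3.97 for Cdk1, -4.19 to 3.65 for Ccnb1 and -3.83 to 3.41 for Ccnb2.

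Most of the spindle and checkpoint genes were patchy, and which libraries held them differed between the genes. Plk1, a kinase of the spindle poles and the kinetochore, had 0 counts in 6 of 13 libraries and up to 192 in 1 h library 3. Aurkb, the kinase of the chromosomal passenger complex, had 0 counts in 6 libraries and up to 218 in control library 3. Aurka, a kinase of the centrosome, had at least 10 counts in 3 libraries, which were 6 h library 4, 1 h library 4 and control library 3 with 30, 145 and 162 counts. Kif11, the motor that pushes the spindle poles apart, had at least 10 counts in 3 libraries, 6 h libraries 1 and 3 with 68 and 66 counts and control library 4 with 340 counts. Cdc20, an activator of the anaphase-promoting complex, had 179 counts in 1 h library 3 and at most 27 elsewhere. Bub1b, a checkpoint kinase, had 0 counts in 3 of 4 libraries at 1 h. A count of 0 allows up to 3 counts in that library, which is 0.228 to 0.402 CPM over the 13 libraries, and such limits cover counting error only.

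Cenpa, the histone that marks centromeres, differed from the other mitotic members by its evenness. It had 29.8, 24.9, 20.2, 19.8 and 20.03 CPM at 6 h, 20.1, 16.1, 4.04 and 18.6 CPM at 1 h and 12.2, 22, 25.3 and 25.3 CPM in controls. The exact permutation p of Cenpa for 6 h against 1 h was 0.0238 before adjustment, while edgeR gave a log2 fold change of 0.64 (interval -0.70 to 1.99, adjusted p = 0.72), so it was not called. E2f1, the transcription factor of the replication genes, had at most 41 counts in any library and 0 in 5 of 13, and with Aurka and Kif11 it was not tested.

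Taking the 22 members that act from S phase to mitosis as a group, which leaves out the D-type cyclins, Cdk4, the inhibitors and E2f1, their summed level was high in the same few libraries. The grouping was made with the values known and gets no test. The sums were 549, 139, 200, 368 and 123 CPM at 6 h, 184, 159, 484 and 442 CPM at 1 h and 151, 317, 238 and 599 CPM in controls. Of the 22 genes 13 had their highest 6 h level in library 1, where 18.3% of all entries tested had theirs. Likewise 13 of 22 had their highest control level in library 4, against 25.9% of all entries tested. At 1 h, 9 were highest in library 3 and 8 in library 4, 5 in library 1 and 0 in library 2, where shares of all entries were 25.4%, 24.9%, 22.6% and 27.1%. The groups overlapped throughout, with means of 276 ± 181 CPM at 6 h (SD, n = 5), 317 ± 170 CPM at 1 h (n = 4) and 326 ± 194 CPM in controls (n = 4).

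**Figure D4:**
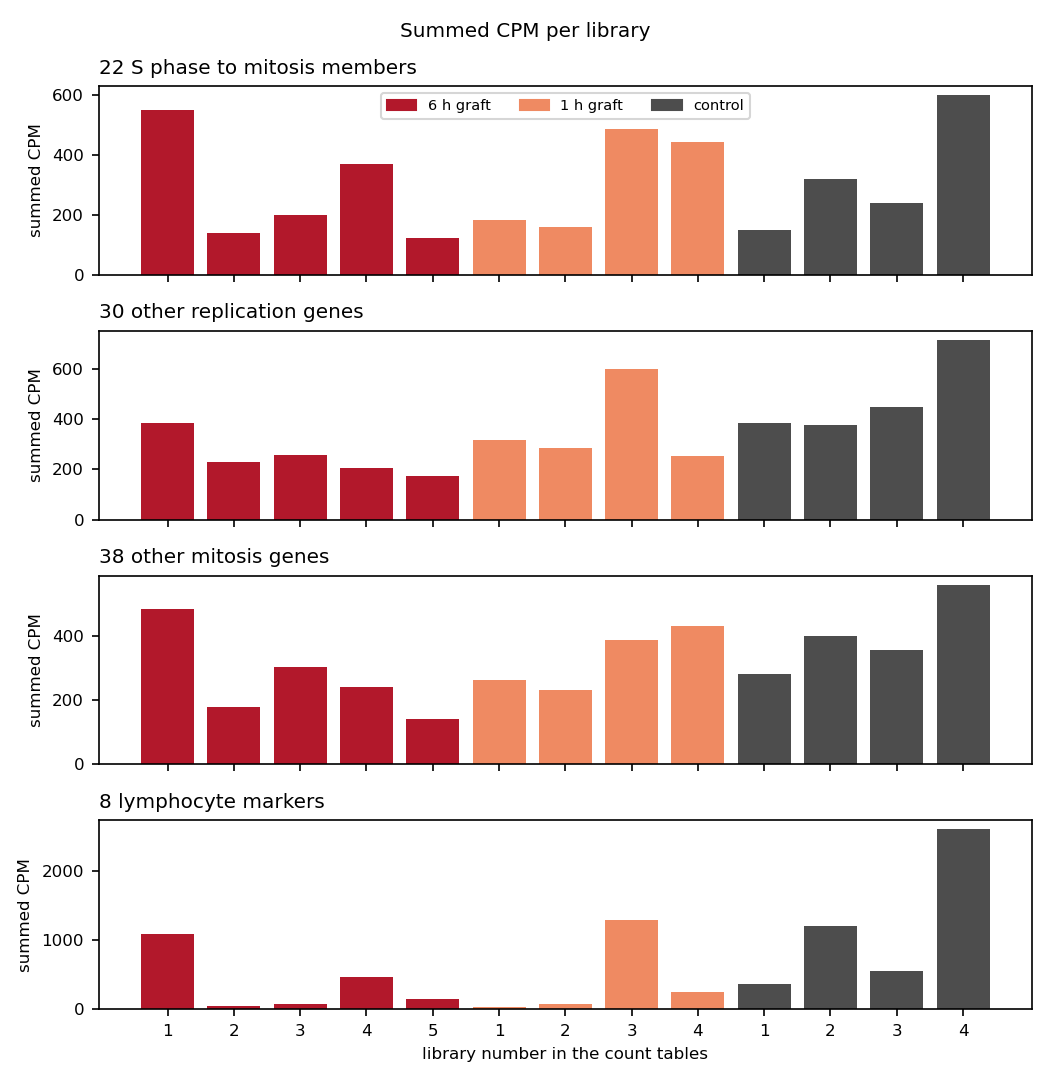
Summed CPM in each library of the 22 members that act from S phase to mitosis, of 30 other replication genes, of 38 other mitosis genes and of 8 lymphocyte markers. Within each group the library with the highest sum of the 22 members (6 h library 1, 1 h library 3, control library 4) also has the highest lymphocyte sum.

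The summed level of B and T cell markers followed this pattern across libraries in part. The 8 lymphocyte markers with an entry, of 10 listed, summed to 1086, 40.6, 74.3, 465 and 141 CPM at 6 h, to 33.6, 70.6, 1289 and 242 CPM at 1 h and to 359, 1208, 554 and 2605 CPM in controls. In each group the library with the highest sum of the 22 members was also the highest for lymphocyte markers. In controls both sums had the same order over the 4 libraries, but not in the graft groups. At 6 h library 5 was lowest for the members but above libraries 2 and 3 for lymphocyte markers. At 1 h libraries 1 and 2 stood in reverse order. Cd79b, a part of the B cell receptor, had 861 CPM in control library 4, 360 CPM in 1 h library 3 and 244 CPM in 6 h library 1. In 6 h libraries 2, 3 and 5 it had 10.98, 4.36 and 2.02 CPM, and in 1 h libraries 1 and 2 it had 19.1 and 0.134 CPM. The T cell marker Cd3g had 0 CPM in 6 h library 4. At 1 h Cd3g had 24.4 CPM in library 3 and 30.6 CPM in library 4. None of the 8 markers was at 0 in a whole group, and none was called in the 3 comparisons by edgeR. The part of lymphocyte RNA in the levels of the 22 members was not tested.

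Detection followed these summed levels only in part. In 1 h library 1, with a sum of 184 CPM of the 22 members, as many members had at least 1 count as in 1 h library 4, with 442 CPM. Of the 28 members with an entry, 28, 23, 24, 25 and 22 had at least 1 count in the 6 h libraries, 26, 17, 25 and 26 in the 1 h libraries and 22, 23, 24 and 27 in the control libraries. At least 10 counts were found for 25, 16, 18, 22 and 16 members at 6 h, 21, 15, 23 and 25 at 1 h and 17, 21, 22 and 25 in controls. The groups overlapped under both minimums, and 1 h library 2, with 11 members at 0, was also the library with the fewest entries of all at 10 counts or more (61.6%). Over all 13 libraries 9 of 28 members (32.1%) kept at least 10 counts, against 39.6% of all 13212 entries. The 9 were Mcm4, Mcm6, Pcna, Ccnd1, Ccnd2, Cdk4, Cenpa, Cdkn1b and Cdkn2c. Thinning every library to the smallest total, 7897624 counts, left the median number of members with at least 1 count as it was in each group, at 24 at 6 h, 25.5 at 1 h and 23.5 in controls. The coefficient of variation between libraries was 1.10 at the median of the 25 members tested, from 0.33 for Ccnd2 to 2.34 for Plk1, against 0.92 for all entries tested, and the standard error at 6 h against control was over 1 for 15 of 25 members, against 47.7% of all entries.

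Further genes of the same pathways were counted from lists drawn up from textbook knowledge. Of 40 other replication genes 27 could be tested, and 0 passed in any of the 3 comparisons by edgeR or DESeq2. At 6 h against control 3 of the 27 had an unadjusted edgeR p under 0.05, all lower. The share of all entries under that threshold is not given here, so this count cannot be set against the background. The median log2 fold change of the 27 was -1.17, beside -0.05 for all entries. Summed levels of the 30 genes with an entry were 385, 229, 259, 207 and 175 CPM at 6 h, 317, 284, 599 and 254 CPM at 1 h and 384, 375, 450 and 716 CPM in controls, so that 4 of 5 libraries at 6 h were below all controls. Of 48 other mitosis genes 30 could be tested, with 0 called by edgeR or DESeq2, 0 at an unadjusted p under 0.05 at 6 h against control, and a median of -0.52. As among the members, 18 of these 30 had their highest 6 h level in library 1 and 16 had their highest control level in library 4.

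Of 37 other regulators 25 could be tested, and 2 were called by edgeR, Rb1 and Mxd1. DESeq2 called both and also Cdkn1a and Rbl1, which are named after their values were seen. Rb1, the retinoblastoma protein that cyclin D and Cdk4 phosphorylate, had 18.4, 16.98, 24.3, 36.7 and 13.99 CPM at 6 h, 22.8, 95.6, 74.6 and 168 CPM at 1 h and 70.5, 86.6, 80.8 and 46.7 CPM in controls. All 6 h libraries were below all controls, and the log2 fold change of Rb1 was -1.69 (SE 0.48, adjusted p = 0.046 by edgeR) at 6 h against control and -2.03 (SE 0.49, adjusted p = 0.0314) at 6 h against 1 h. The first of these calls was lost without 6 h library 1, 2, 3 or 5 and without any 1 of the 4 control libraries, at adjusted p-values of 0.0529 to 0.123 by edgeR. The second was lost without 1 h library 2, 3 or 4 and without 6 h library 1, 2, 3 or 5, at 0.0533 to 0.143. It was also lost when only the libraries of both groups were fitted (adjusted p = 0.0686 by edgeR). Mxd1, a partner of Max that opposes Myc, had 266, 290, 538, 114 and 1154 CPM at 6 h, 375, 292, 117 and 54.6 CPM at 1 h and 15.1, 3.56, 2.36 and 2.81 CPM in controls. Its log2 fold change was 6.30 (SE 0.90, adjusted p = 2.8e-04 by edgeR) at 6 h and 5.13 (SE 0.87, adjusted p = 0.00404) at 1 h against control. Mxd1 was highest in 6 h library 5, the library with the highest neutrophil sum of 60170 CPM, and lowest within each graft group in library 4, where the neutrophil sums of 3314 CPM at 6 h and 1216 CPM at 1 h were the lowest of their groups; the part of neutrophils in its level was not tested.

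Cdkn1a encodes p21, an inhibitor of cyclin-dependent kinases. It had 56, 54, 34, 39 and 48 counts at 6 h, 7, 25, 30 and 29 counts at 1 h and 0, 9, 4 and 0 counts in controls. All 6 h libraries were above all controls, and the adjusted p at 6 h against control was 0.00621 by DESeq2 (log2 fold change 3.94) and 0.128 by edgeR (3.93). Rbl1, the retinoblastoma relative p107, had 25, 1, 4, 0 and 4 counts at 6 h, 1, 0, 0 and 0 counts at 1 h and 157, 158, 16 and 17 counts in controls. At 1 h against control its adjusted p was 0.00208 by DESeq2 and 0.12 by edgeR. Both genes thus passed by DESeq2 and not by edgeR.

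The remaining 11 members had no row in the count tables: Cdc6, Tyms, Tk1, Ccna2, Ccne1, Ccne2, Ccnd3, Cdk2, Bub1, Birc5 and Myc. For these only 2 deposited means of normalised counts could be read, the authors' mean over all libraries, grafts at 24 h included, and the authors' mean of the controls. Cyclin E1, from Ccne1, had an authors' mean of 22.4 over all libraries and 13.0 in controls, and survivin, from Birc5, had 8.19 and 1.60. Ccna2 had authors' means of 13.6 over all libraries and 24.5 in controls, and Cdk2 had 2.57 and 8.65. Cdc6, Ccnd3 and Ccne2 had means of 0.309, 0.547 and 0.127 over all libraries and were listed at 0 in controls. Tyms, Tk1, Bub1 and Myc were listed at 0 in both. The 8 members with 2 or more transcript entries all lack a row, while 28 of 31 members with a single entry have one. Over all symbols, 35.4% of those with 2 or more entries and 64.3% of those with a single entry have a row. Every entry was at 0 for 27.0% of the 3620 symbols with 2 or more entries, against 6.93% of the 16652 with a single entry. The cause was not tested. Myc, the growth factor-induced transcription factor, had 4 entries and all were at 0, so its level was not analysed here.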

How the data were processed

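RNA of vena cava grafts and control vena cava was sequenced by the authors. Per the labels and the paper's methods, reads were checked with FastQC 0.11.5, aligned to mm9 with gsnap, counted per transcript without regard to strand with HTSeq 0.5.4p3 and compared with DESeq2 1.14.1. The deposited tables hold raw counts per RefSeq entry. The authors' full table adds a signal, the mean of normalised counts over all libraries and over controls. The authors' fold changes and p-values were not used, nor were 30 columns (5 in a table) named for 24 h, which could not be matched to the 4 samples with that label.

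Counts of 13 libraries were fitted by group in R 4.3.3 with edgeR 4.0.16 (filterByExpr, 11123 of 13212 entries; TMM; robust quasi-likelihood test; Benjamini-Hochberg at 0.05). Log2 CPM had a prior count of 2. Single members had exact 2-sided permutation tests. Symbols absent from 886 entries were filled from RefSeq for 803. Gene positions came from GENCODE on mm9. The fit was tested on simulated data. Alternatives were DESeq2 1.42.0, library-total and upper-quartile scaling, no filter, 50 counts in 4 libraries, the 2 compared groups only, entries summed by symbol, and each library left out. All 39 members are named, and of other lists the called genes, up to 4 per list and comparison. Members and lists were chosen with earlier results of these data known.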

Additional observations from a re-analysis of the deposited data

Results flagged for a closer look

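Of 87 groups of 4 or 5 libraries examined, 10 had a library far from the rest by Dixon's criterion at the 95% level. Chance alone gives about 1 in 20 only for normally distributed values. That rate does not hold for groups tied near 0 counts, such as Aurka in controls with 0, 0, 162 and 0 counts. In controls the flagged cases were Mcm4 in library 2 (log2 CPM of 1.06, 20 counts), Mcm7 in library 3 (2.27, 43 counts), Aurka in library 3 (4.13, 162 counts) and Kif11 in library 4 (4.70, 340 counts). At 6 h they were Rrm1 (-0.25, 5 counts) and Cdk1 (-1.58, 1 count), both in library 5, and Aurka in library 4 (1.76, 30 counts). At 1 h they were Aurka in library 4 (3.96, 145 counts), Bub1b in library 1 (1.98, 32 counts) and Cenpa in library 3 (2.09, 37 counts). The effect on Cdkn2c relative to control differed between 6 h and 1 h by a log2 fold change of -1.36, tested as 6 h against 1 h. Among members with no counts, the authors' mean over all libraries was above the authors' control mean for Ccne1 (22.4), Birc5 (8.19), Ccnd3 (0.547), Cdc6 (0.309) and Ccne2 (0.127).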

How the results depend on the processing

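The number of members called at 6 h against control, 2, was 1 when only the 2 compared groups were fitted and 1 to 2 with a library left out. At 6 h against 1 h the count of 1 was 0 with no filter, 0 with the 2 groups only and 0 to 1 with a library left out. At 1 h against control it was 0 throughout. Members without overlap at 6 h against 1 h numbered 0 with TMM and 1, Cdkn2c, with library totals. The median number of members detected at 6 h was 24 at 1 count and 18 at 10 counts. Scaling by library totals moved the median of all entries to -0.14 at 1 h against control, to -0.31 at 6 h against 1 h and to -0.46 at 6 h against control, beside -2.04 for Cdkn2c and -1.30 for Ccnd2. For the 7 called single-gene results, Rb1 and Mxd1 included, 78 of 111 alternatives kept the call, 33 lost it and 0 reversed it. None of the 74 uncalled results for the 25 tested members, Rb1 and Mxd1 gained a call. Cdkn1a and Rbl1, called by DESeq2 and not by edgeR, were not among these results. Values of uncalled genes could move widely, as for Mcm2 at 6 h against control (-3.003 to 3.29). No paired analysis was possible because the columns carry no numbers tied to the samples. Depth and spread limit the S phase and mitosis genes, with standard errors of up to 2.33.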
